A study of Mus musculus with 4 samples.

Results

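Extracellular metalloproteases and their inhibitors were followed in RNA sequencing of embryonic mouse cerebral cortex. The group was defined by symbol: protein-coding genes named Adamts, Adamtsl, Mmp or Timp with a number, listed in both deposited tables. It held 40 of the 19968 genes in both tables, namely 19 Adamts proteases, 5 Adamts-like genes, 12 Mmps and 4 Timps. Among the Mmps, 11 others, the collagenases included, were not analysed here. Embryos were C57BL/6 mice at embryonic day 15, either Prdm16cKO (conditional deletion of the transcriptional regulator Prdm16) or Prdm16fl/fl, the controls with floxed alleles. Both groups share the strain and age. Neither the Cre driver nor the deleted exon is named in the labels, which also do not say whether animals were pooled. The tables held 2 libraries labelled cKO (cKO 1 and cKO 2, numbers being names only) and 1 control library, called floxed. Each group had 2 labelled samples, whereas triplicates and telencephalon are named in the design text. Of the titles, 1 for cKO and 1 for floxed also hold the word Blood, which is unexplained. Nothing states that the libraries came from separate animals, so the p-values rest on a spread between libraries that may be technical.

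These proteins remodel the matrix around cells. Mmps and Adamts proteases are zinc-dependent endopeptidases made as inactive proenzymes. Mmps cut collagens, laminins and many other matrix and surface proteins, some from an anchor in the cell membrane, while Adamts proteases cut proteoglycans such as versican and brevican, procollagens and other substrates. Adamts-like proteins share the accessory domains of the Adamts family but lack the protease domain. Timps bind the active site of Mmps, and some of them also inhibit Adamts proteases. In the developing brain this system acts on the basement membrane under the meninges, on vessel walls and on the proteoglycan matrix between neurons and progenitors.

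Library totals were 17841685 counts for floxed, 19518174 for cKO 1 and 18581791 for cKO 2, and levels are given as CPM, counts scaled to these totals. Where 3 values follow each other without library names, their order is floxed, cKO 1, cKO 2. At these depths a count of 0 would allow up to 3 counts, or 0.168, 0.154 and 0.161 CPM. Ratios between 2 libraries carry exact (Clopper-Pearson) 95% intervals, which cover counting error only. For Prdm16 itself the levels were 30.2 CPM (floxed), 34.6 (cKO 1) and 24.1 (cKO 2). Gene totals of Prdm16 thus ran against the label of cKO 1, but they include any exons left in place, and each direction below is that of a library labelled cKO.

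Marker lists of meninges, vessel cells, macrophages and choroid plexus had their lowest sums in cKO 2, whereas radial glia markers had their lowest sum in floxed. The 19 meningeal and fibroblast markers summed to 955 CPM (floxed), 1352 (cKO 1) and 349 CPM (cKO 2). Of the 19, 17 were over 2-fold lower in cKO 2 than in floxed. The others, Igfbp2 (205 CPM) and Zic1 (81.5 CPM), made up most of the cKO 2 sum. The median log2 fold of the list was 0.66 in cKO 1 and -3.65 in cKO 2. The 12 pericyte and smooth muscle markers summed to 290, 353 and 161 CPM, the 18 endothelial markers to 482, 574 and 317 CPM, the 15 microglia and macrophage markers to 155, 207 and 66.9 CPM, and the 10 choroid plexus markers to 1153, 1144 and 344 CPM. In cKO 2 the smooth muscle gene Tagln and the macrophage gene Cd163 were at 0 counts, while no marker was at 0 in floxed or cKO 1. The 12 cortical neuron markers summed to 9310, 9123 and 9239 CPM. The highest of them, Tubb3 (2748, 2629 and 2975 CPM), is a gene of neurons in general, so the sum alone does not check the labelled tissue. The 11 radial glia markers summed to 1811, 2470 and 2429 CPM, with 10 above floxed in cKO 1 and 9 in cKO 2. The 8 interneuron markers summed to 599, 534 and 485 CPM. The 12 erythroid markers summed to 1760, 1609 and 1299 CPM, but 9 of them were above floxed in cKO 1 and 8 in cKO 2, with median log2 folds of 0.49 and 0.38. The part of these differences in the results on metalloproteases was not tested, and fewer cells of a type cannot be told apart from less RNA per cell.

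**Figure D1:**
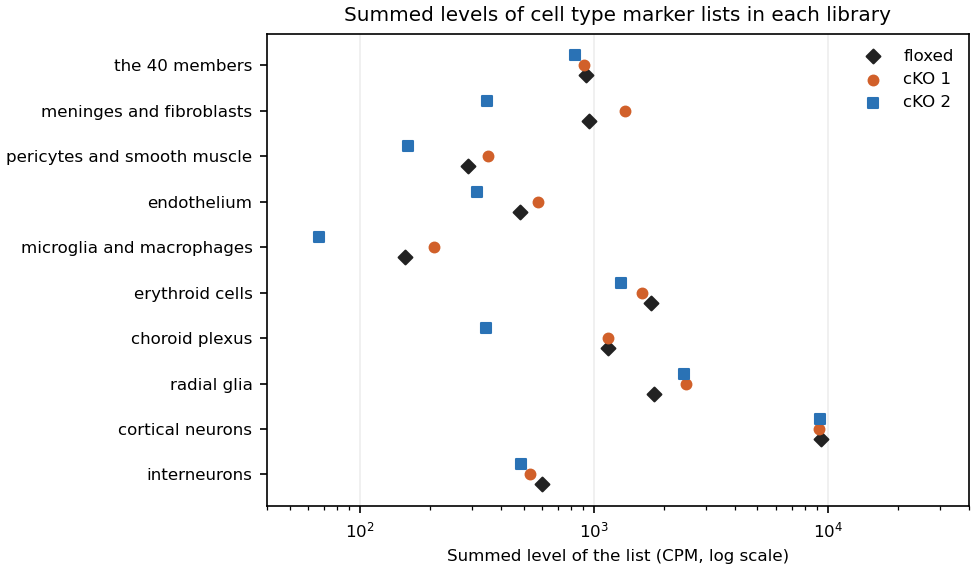
Summed level (CPM, log axis) of each cell type marker list and of the 40 metalloprotease and inhibitor genes in floxed (diamonds), cKO 1 (circles) and cKO 2 (squares). The meningeal list spans 349 to 1352 CPM, whereas the 40 genes together span 829 to 929 CPM.

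Summed over all 40 genes, the level came to 929 CPM (floxed), 907 (cKO 1) and 829 CPM (cKO 2). All 40 were detected in each library, on 1 to 2991 counts. Mean levels over the libraries ran from 0.180 CPM for Adamts13 to 155 CPM for Timp2, and the 5 most abundant genes (Timp2, Mmp15, Mmp14, Mmp24 and Mmp17) made up 60.1% of the summed mean. A mean of at least 50 CPM was reached by 7 of the 40 genes, 23 had one of at least 5 CPM, and 38 reached 1 CPM in some library. Per kilobase of exon (RPKM), Timp2 was again highest, at 42.1, 39.3 and 38.1, ahead of Mmp24 (22.9, 18.4 and 18.9) and Mmp15 (18.1, 18.1 and 18.4). Timp1, a short gene with few counts, had 2.34, 3.0 and 1.15 RPKM, above the larger Timp3 at 1.23, 1.56 and 0.357 RPKM.

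**Figure D2:**
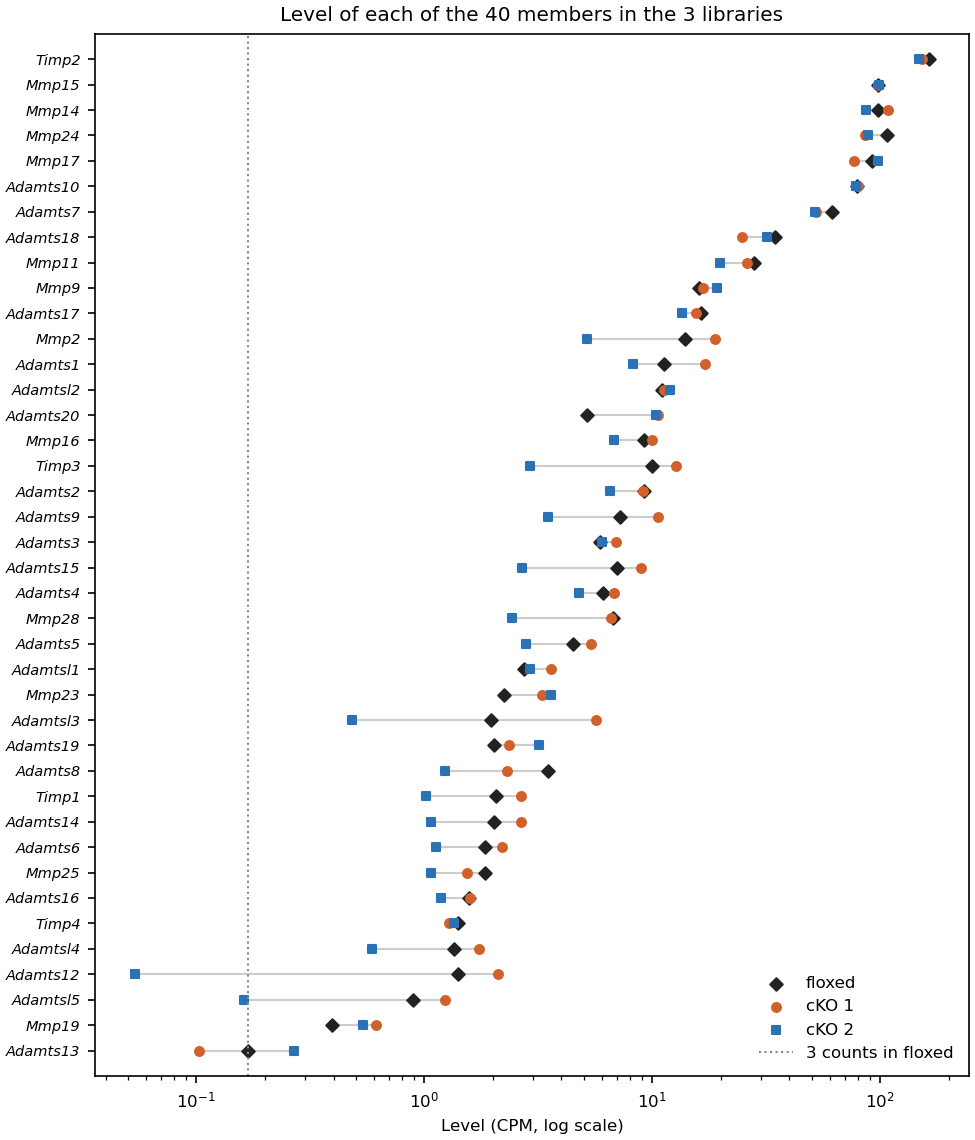
Level (CPM, log axis) of each of the 40 genes in floxed (diamonds), cKO 1 (circles) and cKO 2 (squares), ordered by mean level, with 1 point per library and a grey line spanning the 3 values. The 7 genes at 50 CPM or more have closely spaced points, and wide lines such as those of Mmp2, Timp3 and Adamtsl3 run from cKO 2 at the low end to cKO 1 at the high end.

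No metalloprotease or inhibitor gene passed the test of cKO against floxed. The edgeR quasi-likelihood test called 0 of 39 tested members at a Benjamini-Hochberg adjusted p under 0.05, against 0.00598% of all 16725 genes tested (1 gene). At an unadjusted p under 0.05 there was 1 member, Adamts20, against 1.53% of all genes, and DESeq2 and limma-voom likewise called 0 members. The fit has 1 residual degree of freedom, taken from the cKO pair, so it assumes that floxed libraries would spread as the cKO pair did. The 0 calls therefore do not show that the levels were alike.

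Set against floxed one library at a time, more of the group lay far below floxed in cKO 2 than in cKO 1. In cKO 2, 11 of the 40 genes were over 2-fold lower, where 7.80% of all genes tested were, and 1 was over 2-fold higher (1.97% of all genes). In cKO 1, 2 were over 2-fold higher (2.58% of all genes) and 0 over 2-fold lower (2.17%). The median log2 fold of the 40 was -0.38 in cKO 2 and 0.15 in cKO 1, where all genes tested had medians of -0.04 and 0.01. The exact interval of the ratio lay below 1 for 22 members in cKO 2 (24.5% of all genes) and for 6 in cKO 1 (16%), and above 1 for 4 (16.1%) and 8 (17.8%). These comparisons share the floxed library. They have 1 library a side and no replicate check. Beside these counts stand meningeal marker sums of 955 CPM in floxed and 349 CPM in cKO 2, whose part was not tested. In the authors' deposited tables, 2 members were marked significant in cKO 1, both higher, and 12 in cKO 2, of which 11 were lower. These are the members counted above as over 2-fold from floxed. The marks come from the same counts, 1 library against 1, and are not separate evidence. No gene so marked had an absolute log2 fold under 1.002 in cKO 1 or 1.001 in cKO 2. The shares of all listed genes so marked in the authors' deposited tables were 2.35% and 6.72%.

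The lower levels in cKO 2 were found among both well counted and scarce members. Among the 23 members with a mean of at least 5 CPM, 5 were over 2-fold lower in cKO 2 (Mmp2, Timp3, Adamts9, Adamts15 and Mmp28), where 2.25% of the 11553 genes in that range were. In this range Adamts20 was over 2-fold higher in cKO 1 (0.251% of genes) and in cKO 2 (0.164%), and 0 members were over 2-fold lower in cKO 1 (0.104%). Among the 17 members under 5 CPM, 6 were over 2-fold lower in cKO 2 (Adamts8, Adamts12, Adamtsl3, Adamtsl4, Adamtsl5 and Timp1), where 20.2% of genes in that range were, and 0 were over 2-fold higher (5.99%). Here cKO 1 had 1 member over 2-fold higher, Adamtsl3 (7.79%), and 0 lower (6.79%). The 7 genes with a mean of at least 50 CPM lay between log2 folds of -0.31 and 0.14 in cKO 1 and between -0.27 and 0.09 in cKO 2. Of all genes tested in that range, 0.167% were over 2-fold from floxed in cKO 1 and 0.44% in cKO 2.

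The libraries labelled cKO also differed from each other. The level in cKO 1 was over 2-fold that in cKO 2 for 12 of 40 genes, where 8.74% of all genes tested were, and under 0.5 of it for 1, Adamts13, on 2 against 5 counts (1.80%). Of the 12, 6 had a mean of at least 5 CPM (2.94% of genes in that range): Mmp2, Timp3, Adamts1, Adamts9, Adamts15 and Mmp28. In that range 0 members had the opposite order by over 2-fold (0.0866%). Below 5 CPM there were 6 with cKO 1 higher (21.7%) and 1 with cKO 2 higher (5.63%). The exact interval of cKO 1 over cKO 2 lay above 1 for 20 members (27.3%) and below 1 for 2 (17.0%). For 20 members floxed lay between the cKO libraries, so that the groups overlapped (40.5% of all genes). Of these, 18 had cKO 1 highest and cKO 2 lowest (24.7%). Floxed lay above both for 11 members (31.8%) and below both for 9 (27.7%).

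**Figure D3:**
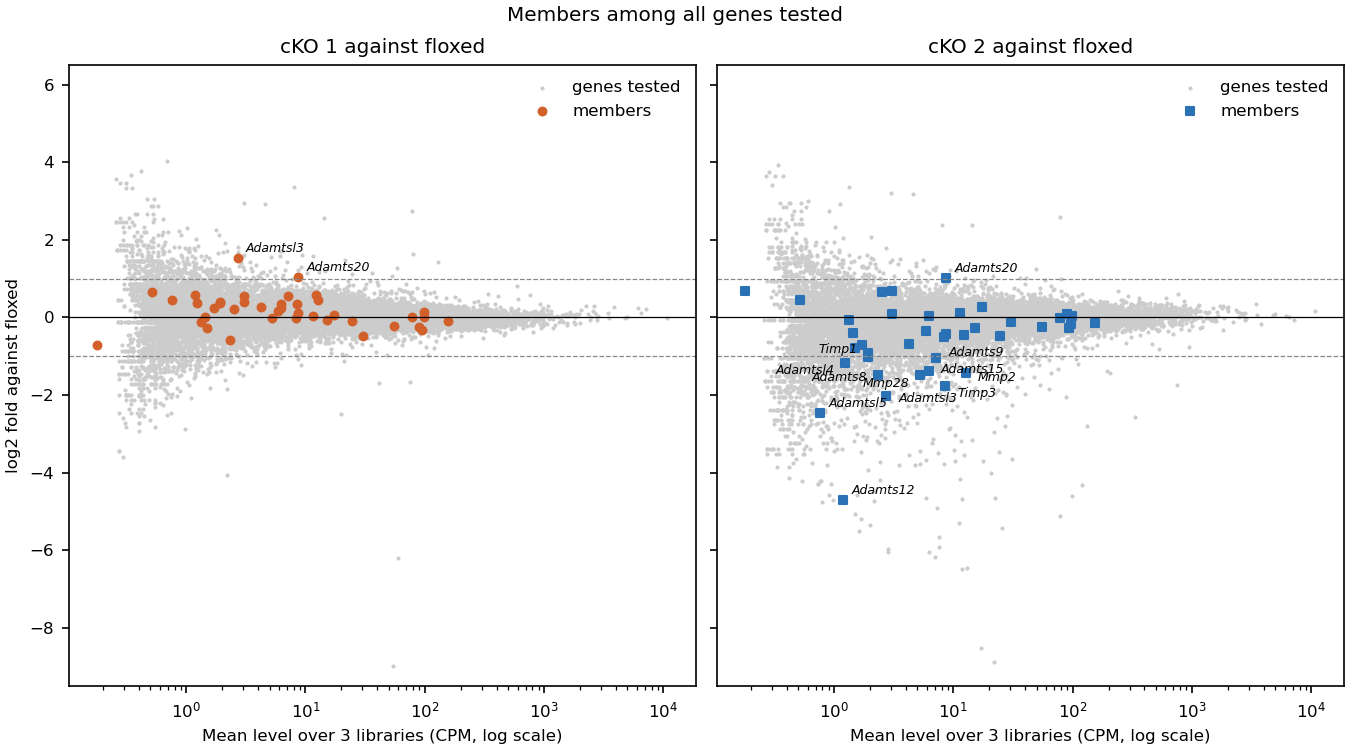
Log2 fold against floxed by mean level (CPM, log axis) for cKO 1 (left) and cKO 2 (right), with the genes tested that had reads in both libraries in grey, the 40 members coloured, and those past 2-fold (dashed lines) named. In cKO 1 only Adamtsl3 and Adamts20 lie past 2-fold, both above, while in cKO 2 Adamts20 lies above and 11 members lie below.

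Promoter windows are shown for 4 members that stand for the patterns above: Adamts20, higher in both libraries labelled cKO, Mmp14, an abundant gene with small differences, and Timp3 and Adamtsl3, high in cKO 1 and low in cKO 2. Each runs 5′ to 3′ on the strand of the gene, from 250 bases before to 50 bases after a RefSeq start (GRCm38.p6), with capitals marking GC boxes, GGGCGG on either strand. Adamts20 and that window lie on the minus strand, and the others on the plus strand.
Adamts20 chr15:94404301-94404600: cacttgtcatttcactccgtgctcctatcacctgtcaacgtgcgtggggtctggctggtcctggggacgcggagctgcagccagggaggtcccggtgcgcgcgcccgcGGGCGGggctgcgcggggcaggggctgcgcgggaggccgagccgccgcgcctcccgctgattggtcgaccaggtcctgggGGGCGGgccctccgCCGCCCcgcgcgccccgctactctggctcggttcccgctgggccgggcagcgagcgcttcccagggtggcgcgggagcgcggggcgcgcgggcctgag
Mmp14 chr14:54431348-54431647: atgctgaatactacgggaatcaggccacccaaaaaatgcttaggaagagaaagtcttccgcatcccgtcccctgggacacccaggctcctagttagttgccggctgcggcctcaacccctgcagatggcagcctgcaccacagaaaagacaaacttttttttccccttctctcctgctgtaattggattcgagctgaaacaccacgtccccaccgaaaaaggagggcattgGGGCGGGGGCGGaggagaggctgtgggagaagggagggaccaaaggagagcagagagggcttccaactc
Timp3 chr10:86300162-86300461: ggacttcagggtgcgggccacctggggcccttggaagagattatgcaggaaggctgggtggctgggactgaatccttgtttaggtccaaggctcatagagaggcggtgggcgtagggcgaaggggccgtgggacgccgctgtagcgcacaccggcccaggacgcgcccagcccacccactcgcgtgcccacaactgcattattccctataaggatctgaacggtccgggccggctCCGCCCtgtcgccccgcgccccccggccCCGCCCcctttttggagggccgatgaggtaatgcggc
Adamtsl3 chr7:82335444-82335743: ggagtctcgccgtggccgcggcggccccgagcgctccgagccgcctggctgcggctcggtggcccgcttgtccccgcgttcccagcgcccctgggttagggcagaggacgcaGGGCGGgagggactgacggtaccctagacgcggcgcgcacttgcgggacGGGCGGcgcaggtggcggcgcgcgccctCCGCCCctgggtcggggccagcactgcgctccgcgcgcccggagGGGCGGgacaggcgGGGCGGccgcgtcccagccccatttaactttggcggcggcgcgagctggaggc
The Adamts20 start lies 61068 bases inside the gene as the tables give it, and the Timp3 and Mmp14 starts lie 40 and 14 bases from the listed 5′ ends of these genes. A GC box stood in 21 of the 25 member windows that could be matched (84.0%) and in 64.0% of those of 11078 tested protein-coding genes. The median GC content was 66.0% and 61.0%. TATAAA was found on either strand in 2 member windows, Adamts1 and Adamtsl2 (8.0% against 6.88%), CCAAT in 6 (24.0% against 38.4%) and the AP-1 motif TGANTCA in 0 (4.58% of tested genes). A match is a description of these letters only. GC boxes stood in the windows of all 4 genes shown, and a relation of GC boxes to direction was not tested.

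Adamts20 was the 1 member over 2-fold above floxed in both libraries labelled cKO. It encodes a secreted protease that cleaves versican and is known from the belted coat mutation of mice, in which a belt across the trunk lacks pigment cells. The gene (ENSMUSG00000022449, GRCm38 chromosome 15, 94270163 to 94465418, minus strand) had 92 counts or 5.16 CPM in floxed, 207 counts or 10.6 CPM in cKO 1 and 193 counts or 10.4 CPM in cKO 2. Both libraries labelled cKO lay above floxed and close to each other, with a mean of 10.5 ± 0.155 CPM (SD, n = 2). The ratio to floxed was 2.06 in cKO 1 (1.60 to 2.66) and 2.01 in cKO 2 (1.56 to 2.61). The fitted log2 fold was 1.02 (SE 0.33), with an unadjusted edgeR p of 0.0159 and an adjusted p of 0.9999 over all genes. In the authors' deposited tables Adamts20 was marked significant in both, with log2 folds of 1.04 and 1.01. Both ratios, and both marks, use the same floxed library with its 92 counts, so they are not independent of each other. Radial glia markers also summed higher in both libraries labelled cKO (1811, 2470 and 2429 CPM), with median log2 folds of 0.36 and 0.34. Of the 11, 4 had an unadjusted edgeR p under 0.05, against 1.53% of all genes tested. Erythroid markers had median log2 folds of 0.49 and 0.38, but lower sums in both libraries labelled cKO (1760, 1609 and 1299 CPM). Of these 12, 4 had an unadjusted edgeR p under 0.05, in both directions. The meningeal sums were 955, 1352 and 349 CPM. The part of any of these lists in the Adamts20 result was not tested.

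The other aggrecanase and versicanase genes, whose proteins cleave the large hyaluronan-binding proteoglycans, mostly had cKO 1 highest and cKO 2 lowest. Adamts1 (ENSMUSG00000022893), an aggrecanase and versicanase, had 11.3 CPM in floxed against 17.0 and 8.23 CPM in cKO 1 and cKO 2. Adamts9, a versicanase, had 7.23, 10.7 and 3.50 CPM, with ratios to floxed of 1.47 (1.18 to 1.85) and 0.484 (0.353 to 0.657). Adamts9 shares 9.18% of its exon bases with A730049H05Rik on the opposite strand. Adamts15, a hyalectanase, had 7.01, 8.91 and 2.69 CPM, a ratio of 0.384 in cKO 2 (0.271 to 0.537). In each of these genes floxed lay between the libraries labelled cKO. Adamts5 (4.48, 5.38 and 2.80 CPM) and Adamts4 (6.11, 6.81 and 4.79 CPM), the aggrecanases of cartilage, had the same order, and the Adamts4 intervals included 1 in both libraries. Adamts8 alone in this set was below floxed in both, at 3.48 CPM (floxed), 2.31 (cKO 1) and 1.24 CPM (cKO 2), on 62, 45 and 23 counts. The fit gave Adamts8 a log2 fold of -0.97 (SE 0.55, edgeR adjusted p = 0.9999), and it shares 10.6% of its exon bases with Gm29724, which runs antisense to it.

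Some of these genes are neighbours. Adamts1 and Adamts5 lie 55.1 kb apart on chromosome 16, both on the minus strand, and both had the order cKO 1, floxed, cKO 2. Adamts15 and Adamts8 lie 20.1 kb apart on chromosome 9 and point away from each other (30899155 to 30922452, minus, and 30942562 to 30963838, plus). Their levels in cKO 1 lay on opposite sides of floxed, and in cKO 2 both were over 2-fold lower (7.80% of all genes tested).

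Among the procollagen N-proteinases, which trim the amino-terminal propeptide of fibrillar collagens, 0 were over 2-fold from floxed in either library. Over all genes tested, 2.58% were over 2-fold higher and 2.17% lower in cKO 1, and 1.97% and 7.80% in cKO 2. Adamts2 stood at 9.25 CPM (floxed), 9.12 (cKO 1) and 6.51 CPM (cKO 2). Adamts14 had 2.02, 2.66 and 1.08 CPM. Adamts3, which also cleaves reelin and acts in the processing of the lymphatic growth factor Vegfc, had 5.89, 6.97 and 6.03 CPM, and both intervals of its ratio included 1. Col1a1, a fibrillar collagen gene of the matrix substrate list, had 90.6 CPM in floxed against 143 and 2.58 CPM in cKO 1 and cKO 2.

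The other Adamts proteases held the most abundant members of the family. Adamts10, which acts on fibrillin microfibrils, stood at 78.9 CPM (floxed), 79.8 (cKO 1) and 78.0 CPM (cKO 2), and its ratio to floxed lay between 0.940 and 1.09 in cKO 1 and between 0.918 and 1.06 in cKO 2. Adamts7, a protease of cartilage oligomeric matrix protein, had 61.5, 52.4 and 51.9 CPM, with a cKO mean of 52.1 ± 0.341 CPM (SD, n = 2). Floxed lay above both libraries labelled cKO, with ratios of 0.851 (0.781 to 0.927) and 0.843 (0.772 to 0.920). For Adamts7 the fit gave a log2 fold of -0.24 (SE 0.14, edgeR adjusted p = 0.9999). Adamts18 was lowest in cKO 1, at 34.7 CPM (floxed), 24.8 (cKO 1) and 31.8 CPM (cKO 2). Adamts17 had 16.3, 15.6 and 13.5 CPM.

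The remaining members of that set were scarce. Adamts12, which also cleaves cartilage oligomeric matrix protein, had 25, 41 and 1 counts (1.40, 2.10 and 0.0538 CPM), a ratio of 0.0384 in cKO 2 with an interval from 0.000935 to 0.235. Adamts6 had 1.85, 2.203 and 1.13 CPM, Adamts16 had 1.57, 1.59 and 1.18 CPM, and Adamts19 had 2.02, 2.36 and 3.18 CPM. Adamts13, the protease of von Willebrand factor, had 3, 2 and 5 counts and was not tested.

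Among the Adamts-like genes, 3 were over 2-fold lower in cKO 2 and the others were near floxed there. All 3 had means under 5 CPM, where 20.2% of genes were over 2-fold lower in cKO 2. Adamtsl3 (ENSMUSG00000070469, chromosome 7, 82335694 to 82614450, plus strand) had 35 counts or 1.96 CPM in floxed, 111 or 5.69 CPM in cKO 1 and 9 or 0.484 CPM in cKO 2. It was the member farthest above floxed in cKO 1, with a ratio of 2.90 (1.97 to 4.37), and in cKO 2 the ratio was 0.247 (0.104 to 0.524). The level in cKO 1 was 11.7 times that in cKO 2, and the groups overlapped. Adamtsl5 had 16, 24 and 3 counts, a ratio of 0.180 in cKO 2 (0.0336 to 0.629). Adamtsl4, a microfibril-associated protein, had 1.35, 1.74 and 0.592 CPM. Adamtsl2, also associated with microfibrils, had 11.1, 11.3 and 11.9 CPM, and Adamtsl1 had 2.75, 3.59 and 2.91 CPM, with intervals that included 1 in both libraries for either gene.

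**Figure D4:**
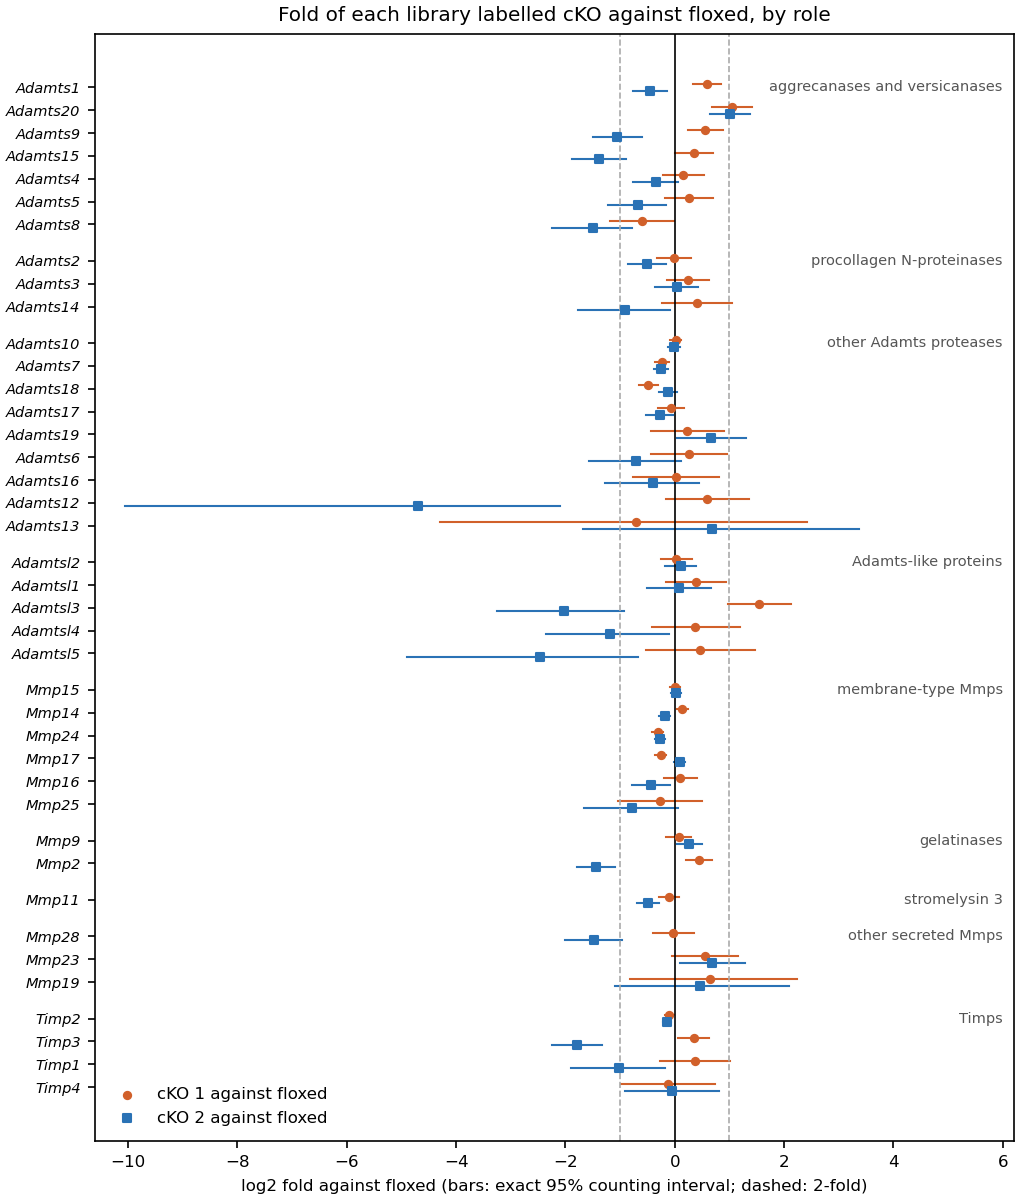
Log2 fold against floxed of cKO 1 (circles) and cKO 2 (squares) for each gene, grouped by role, with bars for the exact 95% counting interval and dashed lines at 2-fold. Mmp14, Mmp15, Mmp17 and Mmp24 lie near 0 in both libraries, Adamts20 lies near 1 in both, and Timp3, Mmp2, Adamts9, Adamts15 and Adamtsl3 lie above 0 in cKO 1 and below -1 in cKO 2.

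Membrane-type Mmps, which act at the cell surface, included 4 of the 5 most abundant members, and none of these 4 was over 2-fold from floxed. All 4 had means of at least 50 CPM, where few of all genes tested were over 2-fold from floxed (0.167% in cKO 1 and 0.44% in cKO 2). Mmp14, the main activator of pro-Mmp2 at the membrane, had 98.1 CPM in floxed against 108 and 86.5 CPM in cKO 1 and cKO 2. Mmp15 had 97.5, 97.6 and 99.2 CPM, with ratios to floxed between 0.937 and 1.07 in cKO 1 and between 0.952 and 1.09 in cKO 2. Mmp24, an enzyme of neurons that cleaves N-cadherin, had 107, 86.1 and 88.7 CPM. Floxed was above both libraries labelled cKO, which lay close together at 87.4 ± 1.81 CPM (SD, n = 2), and the ratios were 0.804 (0.753 to 0.859) and 0.828 (0.775 to 0.885). The fitted log2 fold of Mmp24 was -0.29 (SE 0.14), and the edgeR adjusted p was 0.9999. Mmp24 shares 13.6% of its exon bases with BC029722 on the opposite strand, which had 20.6, 19.2 and 18.8 CPM.

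The other membrane-type genes were mixed. Mmp17, anchored by a lipid tail, stood at 91.9 CPM (floxed), 77.0 (cKO 1) and 97.9 CPM (cKO 2), so that floxed lay between. Mmp16 had 9.25, 9.94 and 6.83 CPM. Mmp25, the other lipid-anchored enzyme, had 1.85, 1.54 and 1.08 CPM on 33, 30 and 20 counts. Summed, the 6 membrane-type genes had 406, 380 and 380 CPM.

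The gelatinases, which cut denatured collagen and collagen IV, had different orders. Mmp2 (ENSMUSG00000031740, chromosome 8, 92827291 to 92853420, plus strand), a product of mesenchymal cells, had 249 counts or 13.96 CPM in floxed, 369 or 18.9 CPM in cKO 1 and 96 or 5.17 CPM in cKO 2. The ratio to floxed was 1.35 in cKO 1 (1.15 to 1.60) and 0.370 in cKO 2 (0.289 to 0.470), and the fitted log2 fold was -0.21 (SE 0.62). Mmp9 had 15.97, 16.8 and 19.2 CPM, highest in cKO 2. Floxed was thus between the libraries labelled cKO for Mmp2 and below both for Mmp9.

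Mmp11, or stromelysin 3, which is activated by furin inside the cell, had 27.9 CPM in floxed against 26.0 and 19.9 CPM in cKO 1 and cKO 2. Mmp28 (epilysin) had 6.73, 6.61 and 2.42 CPM, level with floxed in cKO 1 and at a ratio of 0.360 in cKO 2 (0.250 to 0.511). It shares 12.03% of its exon bases with 1700020L24Rik on the opposite strand, which had 2.75, 1.74 and 1.56 CPM. Mmp23 was above floxed in both libraries labelled cKO, at 2.24, 3.28 and 3.61 CPM, and the interval of its ratio included 1 in cKO 1 (0.970 to 2.23) but not in cKO 2 (1.07 to 2.44). Mmp19 had 7, 12 and 10 counts. It shares 22.3% of its exon bases with Tmem198b on the opposite strand, which had 9.36, 11.5 and 10.5 CPM.

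Among the inhibitors, the abundant Timp2 had similar levels in the 3 libraries, and the scarcer Timp3 did not. Timp2, which inhibits Mmps and also bridges Mmp14 to pro-Mmp2, stood at 164 CPM (floxed), 153 (cKO 1) and 149 CPM (cKO 2). The ratios were 0.935 (0.888 to 0.984) and 0.907 (0.860 to 0.955), with libraries labelled cKO at 151 ± 3.29 CPM (SD, n = 2). Its log2 fold in the fit was -0.12 (SE 0.13, edgeR adjusted p = 0.9999). Timp3 (ENSMUSG00000020044, chromosome 10, 86300372 to 86349506, plus strand), the matrix-bound Timp that also inhibits Adamts proteases, had 178 counts or 9.98 CPM in floxed, 248 or 12.7 CPM in cKO 1 and 54 or 2.91 CPM in cKO 2. The ratio was 1.27 in cKO 1 (1.05 to 1.55) and 0.291 in cKO 2 (0.211 to 0.397), so that floxed lay between. Timp1 had 37, 52 and 19 counts (2.07, 2.66 and 1.02 CPM) and Timp4 had 25 counts in each library (1.40, 1.28 and 1.35 CPM).

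Timp1, Timp3 and Timp4 each lie inside a synapsin gene on the opposite strand, so reads of overlapping exons cannot be assigned, as the library kit does not mark strand. Timp3 shares 21.3% of its exon bases with Syn3, which had 4.76 CPM in floxed against 3.59 and 3.34 CPM in cKO 1 and cKO 2. Timp4 shares 1.53% with Syn2 (54.0, 64.7 and 63.4 CPM), and Timp1 shares none with Syn1 (141, 128 and 145 CPM). No synapsin gene followed the order of Timp3 and Timp1, whose levels were highest in cKO 1 and lowest in cKO 2. The part of reads from shared exons in the Timp levels was not tested.

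Genes that act with these proteases gave 0 edgeR calls in each of 3 lists. Of 16 genes of activation and clearance, 0 passed in either direction, and 0 had an unadjusted p under 0.05. The endocytic receptor gene Lrp1 had 393, 385 and 390 CPM in floxed, cKO 1 and cKO 2, the Mmp inducer Bsg had 372, 371 and 357 CPM, and the testican gene Spock2 had 339, 312 and 295 CPM. Of 14 Adam and astacin proteases, 0 passed and 1, Adam11, had an unadjusted edgeR p of 0.0282 (adjusted p = 0.9999). Bmp1, which removes the other propeptide of procollagen, had 85.8, 85.7 and 82.8 CPM, the sheddase gene Adam10 had 74.4, 90.2 and 71.6 CPM, and Adam11 had 92.3, 63.3 and 74.5 CPM. Over 2-fold lower in cKO 2 were 3 of these 14 and 1 of the 16 activation and clearance genes (7.80% of all genes tested). In cKO 1, 0 of either list were over 2-fold lower (2.17%). Over 2-fold higher were 0 of either list in cKO 1 (2.58%) and in cKO 2 (1.97%).

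In the list of matrix substrates the libraries labelled cKO lay on opposite sides of floxed for many genes. Of 20 tested genes 0 passed, and 9 of the 21 listed were over 2-fold lower in cKO 2 (7.80% of all genes tested) and 0 in cKO 1 (2.17%). Over 2-fold higher were 1 in cKO 1, Hapln1 (2.58% of all genes), and 1 in cKO 2, Hapln4 (1.97%), both named after their values were seen and both under 2 CPM in each library. The neural proteoglycan gene Ncan had 439, 428 and 416 CPM, while the basement membrane collagens Col4a1 (241, 288 and 88.5 CPM) and Col4a2 (234, 259 and 89.2 CPM) were lowest in cKO 2. The median log2 fold of the list was 0.31 in cKO 1 and -0.50 in cKO 2, beside 0.01 and -0.04 over all genes tested. Col1a1, Col1a2 and Col3a1 are also in the meningeal list.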

How the data were processed

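RNA from embryonic cerebral cortex was sequenced with an Illumina TruSeq RNA kit, per the labels' protocols. The authors deposited raw counts per gene, per the file headers, in 2 tables that each pair a cKO library with the same floxed library, whose counts were identical for shared genes. Columns were assigned to groups by KO or WT in their names. HTSeq 0.6.0, TopHat2 2.0.12, Bowtie2 2.2.3 and the genome mm9 are listed without roles, per the submitters' processing notes. Neither labels nor headers state the counting options. The positions listed are not those of mm9: all 40 members overlap their GENCODE M21 (GRCm38) gene, 34 at identical ends. The authors' deposited normalized values are CPM with a count of 0 replaced by 0.5, and gave the library totals. The authors' deposited ratio (fold), its log2 value and p-values compare 1 library with 1 and were used only where named.

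The 19968 genes in both tables were used (1134 and 665 were in 1 table). Genes were filtered at a minimum count of 10 (16725 tested) and fitted with edgeR 4.0.16 (R 4.3.3) on library totals without TMM. The common biological coefficient of variation was 0.224. The quasi-likelihood test was checked on simulated data with the same spread for every gene. That setting does not hold the wide differences within this cKO pair. DESeq2 1.42.0, limma 3.58.1 (voom), other scalings and filters were alternatives. RPKM used the union of GENCODE exons. For each matched gene the RefSeq promoter window nearest the listed gene start was taken. Members with at least 1 CPM in a library are given in every library, and the 3 most abundant genes of each pathway list are named. Members and lists were chosen with earlier results of these data known.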

Additional observations from a re-analysis of the deposited data

How the results depend on the processing

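No paired analysis was possible because the columns of the 2 groups share at most 1 replicate number and there is 1 floxed library. The count of members called was 0 under each of the 7 alternatives run, with 1 member at an unadjusted p under 0.05 in each. The count of pathway genes called was also 0 in each. At an unadjusted p under 0.05 there were 0 pathway genes with TMM factors, DESeq2 size factors, DESeq2 or limma-voom, and 1 in each other setting. Over all genes, edgeR called 1 gene, against 0 with TMM factors, DESeq2 size factors, limma-voom or no filter, and 5 with DESeq2. Of 251 alternative fits of the 38 named members, 243 kept direction and side of the threshold. The direction reversed for Adamts10, to log2 folds of 0.0165 with TMM, 0.0161 with DESeq2 size factors and with DESeq2 itself and 0.0164 with limma-voom, for Mmp14, to 0.0035 with TMM and 0.0030 with DESeq2 size factors and with DESeq2 itself, and for Adamtsl3, to -0.14 with limma-voom; the cause was not tested. Leaving out a library labelled cKO leaves 1 against 1 and no test. Prdm16 then had log2 folds of -0.33 and 0.20, and the folds of members are those given per library.

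The count over 2-fold lower in cKO 2 was 11, 10 with TMM, 15 at 1.5-fold, 22 by the exact interval and 5 among genes with a mean of at least 5 CPM, where fewer genes enter. The count over 2-fold higher in cKO 2 was 1, and 4 at 1.5-fold or by the exact interval. In cKO 1 the count over 2-fold higher was 2, and 4 at 1.5-fold, 8 by the interval and 1 at 5 CPM. That over 2-fold lower was 0, and 2 at 1.5-fold and 6 by the interval. Floxed was below both libraries labelled cKO for 9 members, and for 5 among genes with a mean of at least 5 CPM. Depth limits Adamts12, Adamtsl5, Mmp19 and Adamts13, whose intervals are wide.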
